A study of Homo sapiens with 12 samples.

Results

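The endoplasmic reticulum (ER) chaperones and the genes of the unfolded protein response were examined through 10 genes, HSPA5, HSP90B1, PDIA4, DNAJB9, XBP1, ERN1, SDF2L1, HERPUD1, CRELD2 and AGR2. They were taken by gene symbol from the count tables of 2 RNA-Seq experiments in LNCaP prostate cancer cells. All 10 were found among 28008 genes in the silencing experiment and among 25435 genes in the overexpression experiment. All 10 passed the filter on low counts in the former and 9 in the latter, where AGR2 was left untested. The comparisons ask how the ER arm of the stress response stood beside the ATF4 arm when MUC1-C, the transmembrane subunit of mucin 1, was targeted for silencing or overexpressed.

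LNCaP is a line derived from a prostate cancer metastasis, and LNCaP-ER cells are LNCaP cells selected for resistance to the antiandrogen enzalutamide. LNCaP-ER/tet-MUC1shRNA cells carry a doxycycline-inducible shRNA against MUC1 in a lentiviral vector, and 3 libraries of cells given DMSO vehicle were compared with 3 libraries of cells given 500 ng/mL doxycycline (DOX) for 7 days. No library of cells with a control shRNA given DOX was compared here, so DOX itself and the shRNA cannot be told apart. In the overexpression experiment, 3 libraries of LNCaP cells labelled wild-type were compared with 3 libraries of LNCaP cells labelled tetMUC1-C, called LNCaP/MUC1-C OE below. The control columns of that table are named vector, and whether these cells carried an empty vector is not given in the sources used here. RNA came from cultures grown in triplicate, so the p-values measure the spread between cultures of 1 line.

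Proteins that enter the secretory pathway are folded in the ER by chaperones such as HSPA5 and by disulfide isomerases. When unfolded proteins accumulate, the membrane sensors ERN1 (IRE1α), ATF6 and EIF2AK3 (PERK) start the unfolded protein response. ERN1 removes an intron from XBP1 mRNA, and the resulting factor acts with cleaved ATF6 on the genes of ER chaperones and of ER-associated degradation. EIF2AK3 phosphorylates eIF2α, which favors translation of ATF4, a factor that activates genes of amino acid uptake and synthesis and is also reached from other eIF2α kinases without ER stress. Prostate luminal cells are secretory, and AGR2, a member of the disulfide isomerase family, is found in such epithelia.

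The classical sequence of these promoters is the ER stress response element (ERSE), and the stretches are shown because they set apart the members that hold it. The 250 bases upstream of each RefSeq transcript start in GRCh38.p14 were searched on both strands for ERSE, spelled CCAAT and CCACG with 9 bases of any kind between them, and for ERSE-II, spelled ATTGG and CCACG with 1 base between them. They were also searched for the ATF4-type element (CARE), spelled TGATGNAA with N for any base. ERSE was present in 0.074% of 35116 promoters, ERSE-II in 0.0513% and CARE in 3.14%. Of the 10 members, 4 held ERSE, 2 held ERSE-II and 1 held CARE. In the stretches below, written 5′ to 3′ on the strand of the gene, the capitals mark the matches, and no printed match overlaps another.
HSPA5 (chr9:125241376-125241424, minus strand): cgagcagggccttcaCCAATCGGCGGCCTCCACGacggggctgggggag
XBP1 (chr22:28800588-28800636, minus strand): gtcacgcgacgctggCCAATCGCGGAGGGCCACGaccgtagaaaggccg
CRELD2 (chr22:49918539-49918587, plus strand): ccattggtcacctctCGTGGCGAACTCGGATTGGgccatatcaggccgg
SDF2L1 (chr22:21642099-21642139, plus strand): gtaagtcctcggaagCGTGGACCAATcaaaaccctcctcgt
HERPUD1 (chr16:56931951-56932050, plus strand): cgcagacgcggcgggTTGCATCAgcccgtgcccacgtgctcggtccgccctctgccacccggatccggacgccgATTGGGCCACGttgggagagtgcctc

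HSPA5 and XBP1 each held 1 ERSE close to the start, from -66 to -48 and from -52 to -34 counted from the transcript start. The ERSE of CRELD2 lay from -80 to -62 on the opposite strand. HSP90B1, whose longer stretch of 154 bases is not printed, held 2 ERSE matches. They lay at -194 to -176 and, on the opposite strand, at -89 to -71. HERPUD1 held an ERSE-II from -117 to -107 and was the member with a CARE, from -176 to -169. PDIA4, DNAJB9, ERN1 and AGR2 held none of these letters in this window, which says nothing about the factors themselves.

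Before the results, the labels were checked against the counts. In the silencing experiment the libraries held 28045894 to 45807989 counts and in the overexpression experiment 13806856 to 19208944 counts. MUC1 itself had 26, 10 and 13 counts in the vehicle libraries and 3, 42 and 8 in those labelled DOX. DOX replicate 2 therefore goes against its label. MUC1 had few counts in every library and the groups overlapped, so these counts do not show silencing of MUC1 in the group labelled DOX. Genes at 0 made up 30.7%, 11.2% and 27.95% in the libraries labelled DOX and 36.4%, 38.1% and 36.4% in vehicle. Every library labelled DOX was thus below every vehicle library, and DOX replicate 2 was the lowest. The DOX group is named by its label throughout, and the name silencing experiment refers to the design. In the overexpression experiment MUC1 had 25 to 31 counts in LNCaP and 9168 to 12622 in LNCaP/MUC1-C OE. The 12 luminal markers summed to 7147 to 7806 CPM (normalized counts scaled to a common depth) in the vehicle libraries, to 403 to 421 CPM in LNCaP and to 113 to 124 CPM in LNCaP/MUC1-C OE, where KLK3, KLK2 and FOLH1 had no count in any library. The libraries labelled LNCaP thus held far less luminal marker RNA than those of LNCaP-ER.

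Within the vehicle group, the authors' TPM values, which are scaled for gene length, ordered the members by level. HSP90B1, the ER member of the HSP90 family, stood first at 185 ± 43.9 TPM (SD, n = 3), followed by HSPA5 at 91.2 ± 14.9 TPM, XBP1 at 75.7 ± 6.69 TPM and PDIA4 at 54.6 ± 11.1 TPM. HSPA5 and XBP1 overlapped between libraries, as did PDIA4 and HERPUD1, the latter at 44.1 ± 5.55 TPM. DNAJB9, SDF2L1, ERN1 and CRELD2 lay between 13.5 and 4.81 TPM, each overlapping its neighbor, and AGR2 stood apart at the bottom with 0.960 ± 0.277 TPM.

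In the libraries labelled DOX, the unfolded protein response genes did not move as a block. XBP1 and PDIA4 fell, AGR2 rose, and the other 7 members did not pass the test. Thus 3 of 10 members were called by edgeR's quasi-likelihood test at an adjusted p under 0.05, beside 27.3% of the 14683 genes tested. By direction, 1 was higher, beside 12.8% of all genes, and 2 were lower, beside 14.5%. The median log2 fold change of the 10 was -0.24, against -0.02 over all genes tested. Of all genes called, 46.8% were higher, and this share became 59.6% with scaling by library size only and 95.02% on the log2(TPM + 1) scale. On that last scale the median of all genes shifted by 0.45, and RN7SK, a noncoding RNA, made up 24.6% to 37.7% of the TPM of a library.

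**Figure D1:**
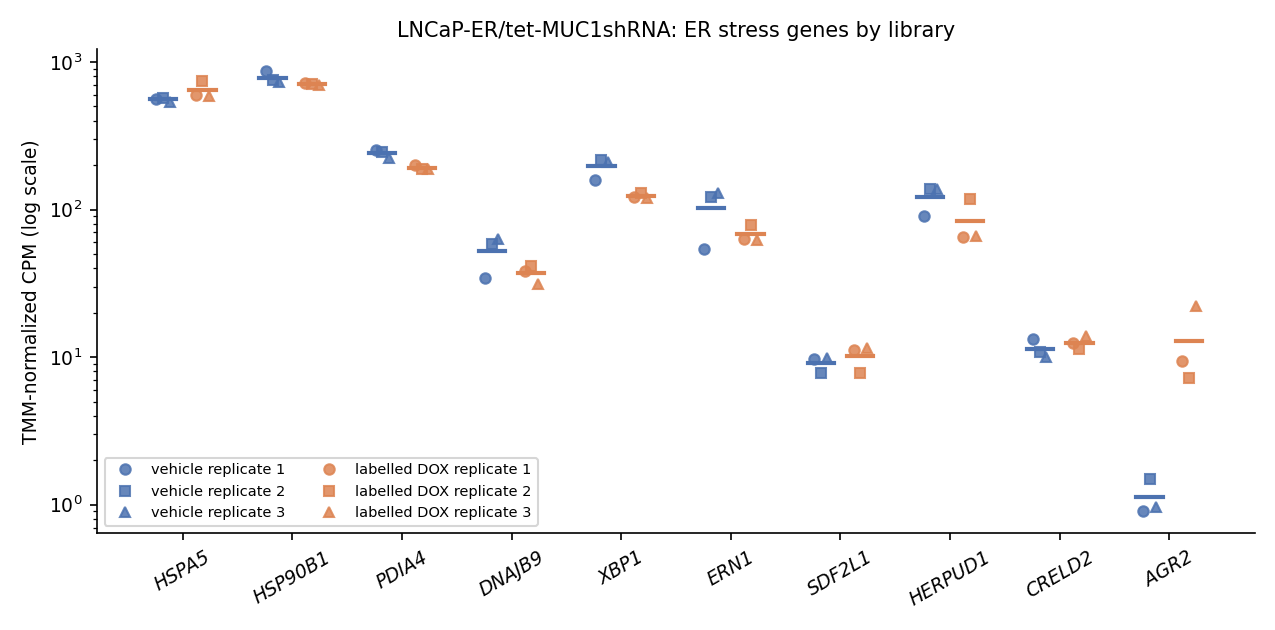
TMM-normalized CPM (log axis) of the 10 ER stress genes in each of the 3 vehicle libraries (blue) and the 3 libraries labelled DOX (orange), with symbols for the replicate and a bar at the group mean. The groups do not overlap for AGR2, XBP1, PDIA4, HSPA5 and HSP90B1, while vehicle replicate 1 lies below the other vehicle libraries for ERN1, DNAJB9 and HERPUD1.

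Among the sensors and factors, XBP1 (chr22:28794555-28800597, minus strand), the factor made after ERN1 splices its mRNA, was the clearest decrease. It had 159, 218 and 211 CPM in the vehicle libraries and 121, 129 and 120 CPM in those labelled DOX. Every library labelled DOX lay below every vehicle library. The means were 196 ± 32.3 and 123 ± 5.19 CPM (SD, n = 3 each), a log2 fold change of -0.67 with a standard error of 0.13 and an adjusted p of 0.00603 by edgeR. The call held without each library in turn, but it was lost on the TPM scale, where the log2 difference was -0.10 and its distance from the median of all genes -0.55. The counts are per gene, so spliced and unspliced XBP1 mRNA were not distinguished.

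ERN1 (chr17:64039142-64130819, minus strand), the sensor kinase and ribonuclease itself, had 54.2, 122 and 130 CPM in vehicle and 63.0, 78.5 and 62.3 CPM in the libraries labelled DOX. The groups overlapped because vehicle replicate 1 was the lowest of the 6. The log2 fold change was -0.59 with a standard error of 0.28, and the adjusted p by edgeR was 0.151. Without vehicle replicate 1 it was -0.90 with an adjusted p of 0.00463.

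The other 2 sensors gave small differences. EIF2AK3, whose signal runs to ATF4, rose from 33.5 ± 2.64 to 43.7 ± 3.36 CPM (SD, n = 3 each), by 0.38 ± 0.11 on the log2 scale (standard error), at an adjusted p of 0.0288 by edgeR. All 3 libraries labelled DOX, at 44.2, 46.8 and 40.1 CPM, were above the vehicle libraries, which reached 36.0 CPM, but the call was lost in 4 of the 6 fits that left out 1 library. ATF6, the sensor that is cleaved in the Golgi, had 107 ± 19.4 and 99.6 ± 13.3 CPM, and its log2 fold change of -0.10 was smaller than its standard error of 0.15.

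Of the chaperones, HSPA5 (chr9:125234853-125241330, minus strand), known as BiP, had 562, 574 and 538 CPM in vehicle and 598, 739 and 591 CPM in the libraries labelled DOX. The libraries labelled DOX lay above the vehicle libraries without overlap, and DOX replicate 2 stood above the rest. The log2 fold change of 0.20 ± 0.11 (standard error) had an adjusted p of 0.213 by edgeR. HSP90B1 (chr12:103930107-103953645, plus strand) was at 735 to 867 CPM in vehicle and 698 to 722 CPM in the libraries labelled DOX. Here the libraries labelled DOX lay below without overlap, and the log2 fold change was -0.15 ± 0.10 with an adjusted p of 0.308. The point estimates of these 2 chaperones thus had opposite signs, and neither passed the test. In all, the groups did not overlap for 5 of 10 members, 2 higher and 3 lower, beside 44.3% of all genes tested, 21.2% higher and 23% lower.

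PDIA4 (chr7:149003062-149028641, minus strand), a disulfide isomerase that associates with HSPA5, was at 253, 244 and 225 CPM in vehicle and at 200, 188 and 188 CPM in the libraries labelled DOX. It fell by 0.33 on the log2 scale (standard error 0.09, adjusted p 0.0257 by edgeR) with no overlap between groups. On log2(TPM + 1) its difference had the other sign, at 0.23, but lay below the median of all genes at 0.45. The call was lost in 4 of the 6 fits that left out 1 library, with adjusted p values from 0.0523 to 0.0987. DNAJB9 (chr7:108569568-108574850, plus strand), a J-domain partner of HSPA5, had 34.4, 58.0 and 63.7 CPM in vehicle and 38.7, 41.6 and 31.3 CPM in the libraries labelled DOX. Vehicle replicate 1 lay among the libraries labelled DOX here, whereas for ERN1 it lay below them. The log2 fold change was -0.49 ± 0.21 with an adjusted p of 0.125, and without that library it was -0.72 with an adjusted p of 0.0118.

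HERPUD1 (chr16:56932048-56944863, plus strand), a membrane protein of ER-associated degradation, repeated this arrangement with 90.7, 138 and 139 CPM in vehicle. The libraries labelled DOX had 65.2, 118 and 66.6 CPM, so replicate 2 reached the vehicle range. The log2 fold change was -0.56 ± 0.25 with an adjusted p of 0.122 by edgeR. Without DOX replicate 2 it was -0.86 with an adjusted p of 0.00782. SDF2L1 (chr22:21642261-21644298, plus strand), which works in the HSPA5 and J-domain protein cycle, and CRELD2 (chr22:49918167-49927540, plus strand), an ER protein with EGF-like repeats, were low and overlapped between groups. SDF2L1 ranged from 7.75 to 11.6 CPM over the 6 libraries and CRELD2 from 9.95 to 13.9 CPM, with log2 fold changes of 0.16 ± 0.19 and 0.15 ± 0.16.

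AGR2 (chr7:16791811-16833433, minus strand) was the member with the largest change. The 100 bases before its RefSeq start (chr7:16805000-16805099, minus strand) are shown because it had the largest change of the members. They hold none of the 3 elements.
AGR2: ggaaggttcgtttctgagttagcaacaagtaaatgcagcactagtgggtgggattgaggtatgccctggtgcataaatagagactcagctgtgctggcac
It had 34, 44 and 27 counts in the vehicle libraries and 311, 214 and 1025 counts in those labelled DOX. This corresponds to 0.904, 1.497 and 0.959 CPM against 9.43, 7.21 and 22.1 CPM, so every library labelled DOX was several times above every vehicle library. AGR2 was 11.6-fold higher, a difference of 3.54 ± 0.45 on the log2 scale (standard error), with an adjusted p of 0.00134 by edgeR. DOX replicate 3 was the highest, and without it the log2 fold change was 2.89. Each of the 17 refits kept the call. Of the 12 luminal markers, 6 also rose and 1 fell, beside 12.8% and 14.5% of all genes tested. KLK3, the prostate-specific antigen, had a log2 fold change of 1.18. The part of these markers in the AGR2 result was not tested, and in bulk RNA a change in the share of cells and in RNA per cell cannot be told apart. The libraries labelled DOX also had fewer genes at 0. Their immune markers summed to 22.5 to 24.9 CPM against 5.37 to 7.58 CPM in vehicle, while the fibroblast markers overlapped between groups. AGR2 was at 0.904 to 1.497 CPM in vehicle, and any link to these differences was not tested.

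**Figure D2:**
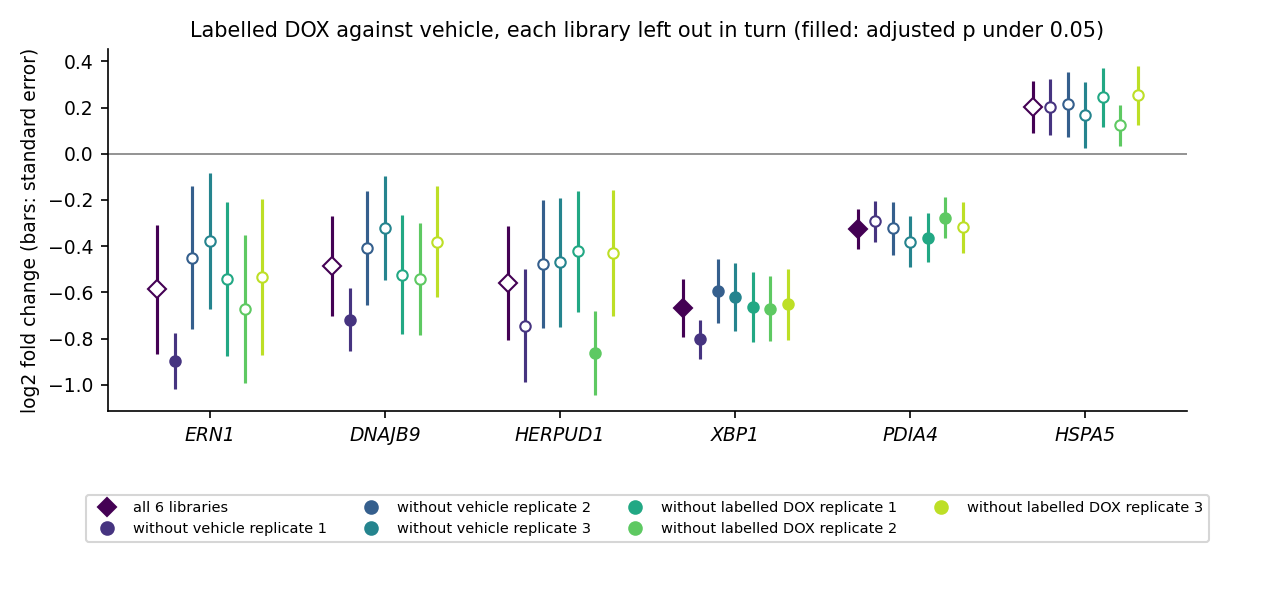
Log2 fold change (bars, standard error) of 6 members between the libraries labelled DOX and vehicle, with all 6 libraries (diamonds) and with each library left out in turn (circles), filled where the adjusted p was under 0.05. XBP1 is filled in every fit, ERN1 and DNAJB9 when vehicle replicate 1 is left out, and HERPUD1 when DOX replicate 2 is left out.

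Several members shared an order of the 6 libraries. For DNAJB9, XBP1, ERN1 and HERPUD1, vehicle replicates 2 and 3 were the 2 highest of the 6 libraries. This order held for 4 of 10 members (40%), for 32 of 37 genes of the ATF4 arm (86.5%) and for 16.6% of all genes tested. The order depends on the libraries labelled DOX as well as on the spread within vehicle, so genes lower in the former meet it more readily. Of the 37 genes of the ATF4 arm, 35 had a negative log2 fold change. The mean of vehicle replicates 2 and 3 was 2.33 times the level of replicate 1 for ERN1, 1.77 times for DNAJB9, 1.53 times for HERPUD1, 1.35 times for XBP1 and 3.998 times for DDIT3, the proapoptotic factor downstream of ATF4. For HSPA5, HSP90B1 and PDIA4 it was 0.989, 0.859 and 0.926 times, so these genes did not share the order. For AGR2 it was 1.36 times, but there the libraries labelled DOX were the highest. With vehicle replicate 1 and DOX replicate 2 both left out, a setting chosen after these values were seen, 6 members were called. AGR2 was higher, and XBP1, PDIA4, ERN1, DNAJB9 and HERPUD1 were lower. In that fit 7130 of 14520 genes were called, 3548 higher and 3582 lower.

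The rest of the ER machinery was described with 6 lists that leave out the 10 members. Of 187 genes tested, 36 were higher (19.3%) and 24 were lower (12.8%) in the libraries labelled DOX. Over all genes tested, 12.8% were higher and 14.5% lower. The median log2 fold change of the 187 was 0.02. With 1 library left out, 7 to 52 were higher and 11 to 25 lower. Calls over all genes in those fits ranged from 839 to 2679 higher and from 1163 to 2564 lower. With vehicle replicate 1 and DOX replicate 2 both left out, 64 were higher and 44 lower of 186, beside 3548 and 3582 of 14520 genes. On log2(TPM + 1), where the median of all genes was at 0.45, 93 of 181 were higher and 4 lower, beside 4884 and 256 of 11404 genes. The ATF4 arm had 1 gene higher and 19 lower of 37, with a median of -0.90. Its factor ATF4 fell from 432, 654 and 653 CPM to 190, 399 and 207 CPM, by 1.13 on the log2 scale at an adjusted p of 0.0186 by edgeR. This call was lost without vehicle replicate 2 or 3 or without DOX replicate 1 or 3, at adjusted p values from 0.0548 to 0.0797. The count of lower genes in the ATF4 arm was 24 without vehicle replicate 1, 28 without DOX replicate 2 and 7 without DOX replicate 3. It was 11, 10 and 11 without vehicle replicate 2, vehicle replicate 3 and DOX replicate 1. In the same order of fits, the genes called lower over all genes were 2014, 2564, 1170, 1258, 1163 and 1630. On log2(TPM + 1) the ATF4 arm had 2 higher and 13 lower of 35.

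Within the 6 ER lists, genes moved in both directions. Among 28 chaperones and cochaperones 4 were higher and 5 lower. SIL1, the nucleotide exchange factor of HSPA5, rose by 0.58 on the log2 scale, while DNAJC10, an ER reductase with a J domain, fell by 0.80 and HSPA13 fell by 2.19. Among 21 disulfide isomerases and oxidases 6 were higher and 3 lower. QSOX1, a sulfhydryl oxidase, rose from 81.0, 133 and 119 CPM to 412, 307 and 563 CPM, a log2 fold change of 1.95, while the transmembrane thioredoxin TMX4 fell by 1.13. Of 33 genes of ER-associated degradation 7 were higher, such as the mannosidase MAN1B1 (0.59), and 6 lower, such as the ubiquitin ligase RNF5 (-0.86).

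Of 18 sensors, factors and their processing enzymes, 6 were higher and 2 lower. WFS1, an ER membrane protein, rose by 0.49, while MBTPS2, the site-2 protease that releases ATF6, fell by 0.75. The translocon and targeting list had 2 higher and 4 lower of 42, with SEC11C of the signal peptidase at 0.90 and SRP9 of the signal recognition particle at -1.40. ER to Golgi transport had 11 higher, such as the COPII coat gene SEC24C (0.71), and 4 lower of 45. Outside the ER, 6 of 31 cytosolic chaperones were higher and 3 lower, with BAG3 at 0.86 and HSPB1 at -1.001, and 3 of 18 mitochondrial chaperones and proteases were higher and 6 lower. In the ATF4 arm, WARS1, a tryptophan tRNA synthetase, fell by 1.57 and SLC7A11, the cystine transporter, by 1.95. TNFRSF10B, a death receptor, was the 1 gene of that list that rose, at 0.42. Its call was lost in 5 of the 6 fits that left out 1 library, at adjusted p values from 0.0650 to 0.118, and that of WFS1 without vehicle replicate 3, at 0.0540. MBTPS2 lost its call without vehicle replicate 2 or 3, at 0.0587 and 0.0687. On log2(TPM + 1), DNAJC10, RNF5, MBTPS2 and HSPB1 kept their sign, at -0.22, -0.25, -0.22 and -0.44, but lost the call.

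**Figure D3:**
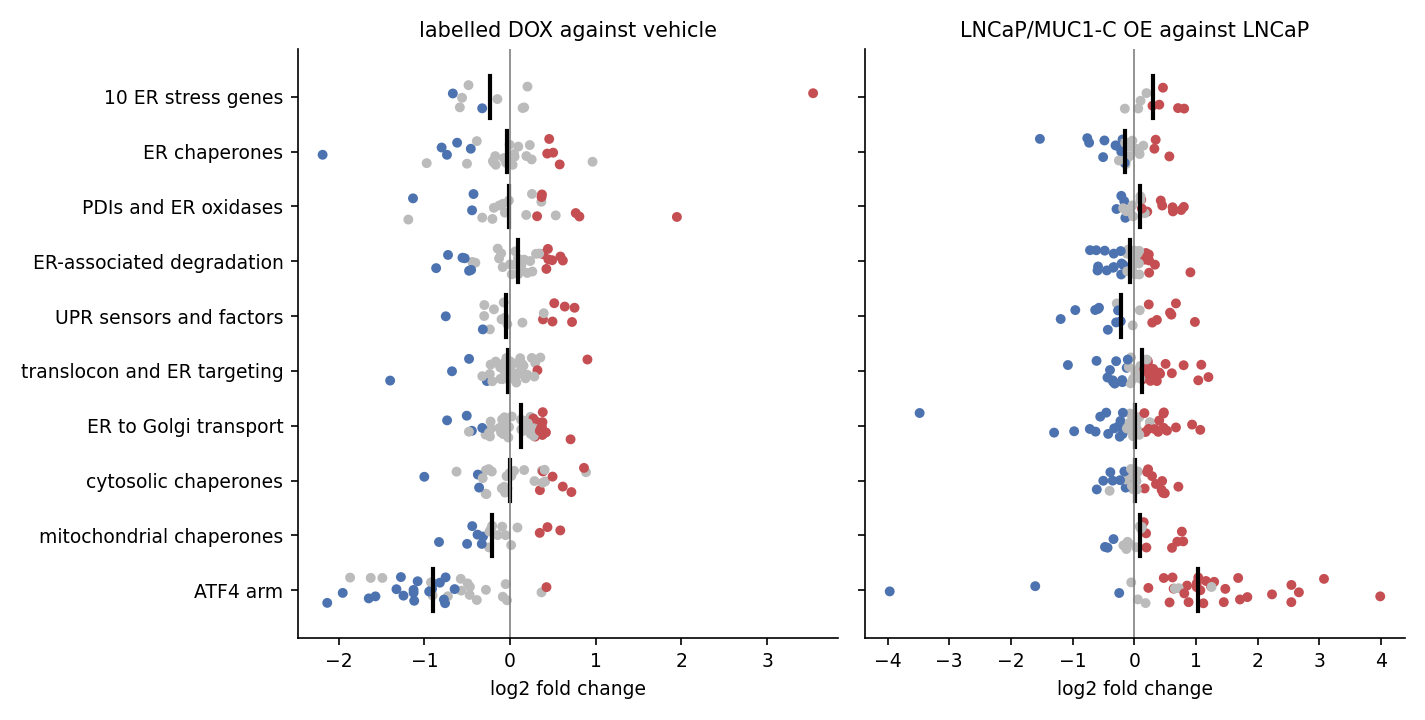
Log2 fold change of every tested gene of the 10 ER stress genes, the 6 ER lists, the cytosolic and mitochondrial chaperones and the ATF4 arm, in the silencing (left) and overexpression (right) experiments. Points are red where higher and blue where lower at an adjusted p under 0.05 and gray otherwise, and black bars are medians. The medians of the 6 ER lists lie from -0.05 to 0.13 on the left and from -0.22 to 0.12 on the right. Those of the ATF4 arm lie at -0.90 and 1.03.

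In LNCaP/MUC1-C OE cells, 5 of the 9 members tested rose and none fell. XBP1, HERPUD1, CRELD2, PDIA4 and DNAJB9 were higher, while HSPA5, HSP90B1, ERN1 and SDF2L1 did not pass the test. This count stands beside 67.3% of 13836 genes called in either direction and 33.2% called higher, so the members' 55.6% is below the overall share of genes called and above the share called higher, and with 9 genes nothing particular to them can be read from it. The groups did not overlap for the same 5 members, all higher, beside 70.3% of all genes tested, 34.4% higher and 35.9% lower. The median log2 fold change of the 9 was 0.30, against -0.01 over all genes tested. Scaling by library size only shifted the median of all genes to -0.16 and moved the share of higher genes among those called from 49.4% to 32.3%. The members then counted 4 higher and 1 lower, with SDF2L1 lower and DNAJB9 no longer called.

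**Figure D4:**
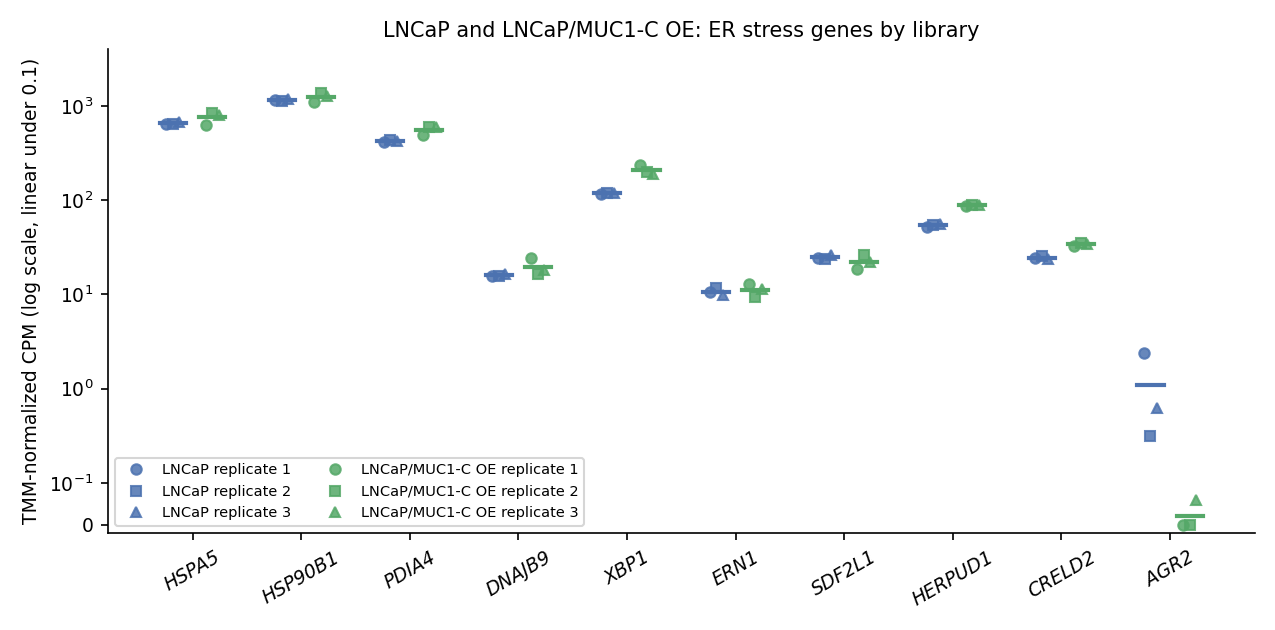
TMM-normalized CPM (log axis, linear under 0.1) of the 10 ER stress genes in the 3 LNCaP libraries (blue) and the 3 LNCaP/MUC1-C OE libraries (green), with symbols for the replicate and a bar at the group mean. XBP1, HERPUD1, CRELD2, PDIA4 and DNAJB9 do not overlap between groups, and AGR2 is at or near 0 in the LNCaP/MUC1-C OE libraries.

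XBP1 had 116, 120 and 119 CPM in LNCaP and 234, 198 and 189 CPM in LNCaP/MUC1-C OE. All 3 OE libraries were above all LNCaP libraries, which differed from each other by only a few CPM. XBP1 was 1.75-fold higher, a difference of 0.81 ± 0.07 on the log2 scale (standard error), with an adjusted p of 2.22e-08 by edgeR. ERN1, which splices it, was at 9.87 to 11.7 CPM in LNCaP and at 9.49 to 12.8 CPM in LNCaP/MUC1-C OE. The ERN1 groups overlapped, the log2 fold change was 0.07 ± 0.12, and its sign turned with scaling by library size only.

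HERPUD1 had 51.7, 55.2 and 55.7 CPM in LNCaP and 87.9, 89.8 and 88.2 CPM in LNCaP/MUC1-C OE. The 3 libraries of each group lay close together, and the fold of 1.64 had an adjusted p of 3.38e-09 by edgeR. CRELD2 rose from 24.6 ± 0.787 to 33.9 ± 1.39 CPM (SD, n = 3 each), a log2 fold change of 0.47 ± 0.07 with an adjusted p of 1.48e-05. Its 3 OE libraries, at 32.3, 34.9 and 34.6 CPM, were all above the LNCaP libraries. HERPUD1, CRELD2 and XBP1 are 3 of the members whose promoter stretch holds ERSE or ERSE-II, as are HSPA5, HSP90B1 and SDF2L1.

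HSPA5 had 651, 647 and 684 CPM in LNCaP and 631, 839 and 803 CPM in LNCaP/MUC1-C OE. OE replicate 1 was the lowest of all 6 libraries, while OE replicates 2 and 3 were the highest. The log2 fold change was 0.20 ± 0.10 (standard error) with an adjusted p of 0.0987 by edgeR. Without OE replicate 1 it was 0.31 with an adjusted p of 6.00e-07. HSP90B1 showed the same order, at 1120 to 1198 CPM in LNCaP and 1111, 1357 and 1273 CPM in LNCaP/MUC1-C OE. Its log2 fold change of 0.10 ± 0.06 became 0.18 without that library, with an adjusted p of 0.000742, and turned to -0.05 with scaling by library size only.

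PDIA4 was at 415, 433 and 422 CPM in LNCaP and at 487, 592 and 604 CPM in LNCaP/MUC1-C OE, where replicate 1 was again the lowest of its group. It rose by 0.41 ± 0.07 on the log2 scale with an adjusted p of 8.61e-05 by edgeR. DNAJB9 went from 15.9, 15.8 and 16.6 CPM to 24.3, 16.7 and 18.3 CPM, and here OE replicate 1 was the highest. The log2 fold change was 0.30 ± 0.11 with an adjusted p of 0.0304, and it was 0.12 with an adjusted p of 0.231 without that library. The DNAJB9 call was also lost without LNCaP replicate 1 or 2, at adjusted p values of 0.0768 and 0.0748. SDF2L1 had 24.0 to 26.0 CPM in LNCaP and 18.6 to 26.1 CPM in LNCaP/MUC1-C OE, with a log2 fold change of -0.15 ± 0.10.

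AGR2 was scarce in these cells. The LNCaP libraries had 48, 6 and 12 counts and the LNCaP/MUC1-C OE libraries 0, 0 and 1. Replicate 1 of LNCaP held most of the counts of its group. Summed over libraries and scaled for depth, LNCaP was 50.3 times LNCaP/MUC1-C OE, with an exact 95% counting interval from 8.72 to 2017, and 21.0 times (3.32 to 875) without LNCaP replicate 1. These intervals cover counting error only and are no test between the conditions. Of the 6 alternative fits in which the gene could be tested, 2 called it lower, DESeq2 at an adjusted p of 0.000155 and edgeR without LNCaP replicate 2 at 0.000387. edgeR without the filter (0.0530) and without OE replicate 1, 2 or 3 (0.0618, 0.0793 and 0.118) did not. Of the 12 luminal markers, 10 also fell in LNCaP/MUC1-C OE, beside 34.1% of all genes tested. The part of these markers in the AGR2 values was not tested.

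**Figure D5:**
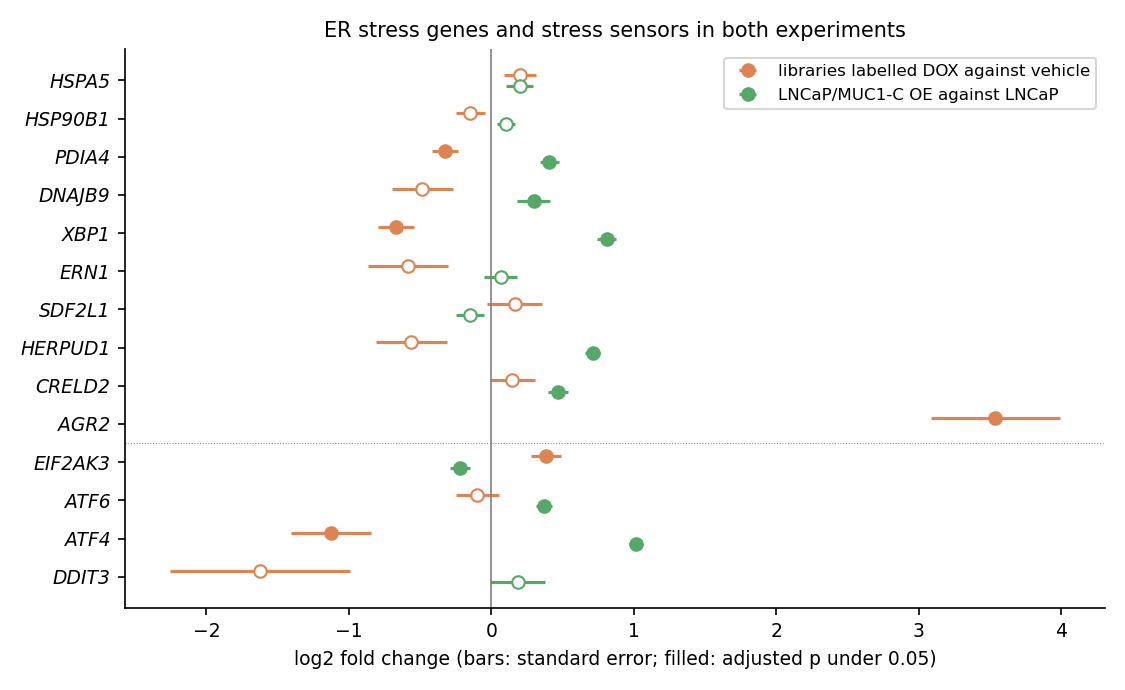
Log2 fold change (bars, standard error) of the 10 members and of EIF2AK3, ATF6, ATF4 and DDIT3 in the libraries labelled DOX against vehicle (orange) and in LNCaP/MUC1-C OE against LNCaP (green), filled where the adjusted p was under 0.05. XBP1, PDIA4 and ATF4 are filled on opposite sides of 0, orange below and green above, EIF2AK3 is filled on the reverse sides, and AGR2 has no green point because it was not tested there.

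Of the sensors and factors beside the members, ATF6 rose from 101 ± 3.41 to 131 ± 9.96 CPM, a log2 fold change of 0.37 with an adjusted p of 1.80e-05 by edgeR. EIF2AK3 fell by 0.22 on the log2 scale, from 28.6 ± 0.0872 to 24.6 ± 0.885 CPM, with an adjusted p of 0.0116 that became 0.0602 without OE replicate 3. ATF4 had 449, 471 and 435 CPM in LNCaP and 926, 893 and 915 CPM in LNCaP/MUC1-C OE. It was 2.02-fold higher with an adjusted p of 2.19e-12, and no library of one group came near the other. DDIT3 stayed between 4.70 and 8.19 CPM in all 6 libraries, with a log2 fold change of 0.18 ± 0.19. Without OE replicate 1 it was 0.38 with an adjusted p of 0.0389 by edgeR.

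The 6 ER lists without the members had 58 genes higher (30.9%) and 63 lower (33.5%) of 188, with a median log2 fold change of -0.02, beside 33.2% higher and 34.1% lower over all genes. With scaling by library size only, these became 37 higher and 101 lower, beside 3050 higher and 6388 lower of 13836 genes. The ATF4 arm had 27 genes higher and 3 lower of 36, with a median of 1.03. With 1 library left out, 21 to 29 were higher and 2 to 4 lower, beside 4148 to 4675 higher and 4338 to 4837 lower over all genes. The median of the ATF4 arm was 0.86 without OE replicate 1 and 1.01 to 1.09 without each other library. In the ATF4 arm SESN2, a sestrin, rose by 1.69, CEBPG, a partner of ATF4, by 1.45 and SLC7A1, a cationic amino acid transporter, by 1.07 on the log2 scale. TNFRSF10B fell by 1.60, and GDF15, a stress cytokine, by 3.96.

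Among 29 ER chaperones and cochaperones, 3 were higher and 11 lower. CALR, the calcium-binding lectin chaperone, rose by 0.57 on the log2 scale and SEC63, a translocon J-domain protein, by 0.33, while CLGN, a calnexin relative, fell by 1.53 and SERPINH1, the collagen chaperone, fell by 0.76. Of 21 disulfide isomerases and oxidases, 9 were higher, such as the oxidase ERO1A (0.80) and TMX1 (0.63), and 4 were lower, such as ERP44 (-0.29). ER-associated degradation had 7 higher and 13 lower of 32. EDEM1, which hands mannose-trimmed proteins to degradation, rose by 0.34, while DERL1, a channel component, fell by 0.72 and the ubiquitin-conjugating enzyme UBE2J1 by 0.59.

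Of 19 sensors and factors, 7 were higher and 9 lower. The ER-anchored factors moved in both directions, with CREB3L2 up by 0.98 and CREB3 and CREB3L1 lower at -0.96 and -1.19. NFYC, a subunit of the NF-Y complex that binds the CCAAT part of ERSE, rose by 0.68. The translocon and targeting list had 19 higher and 12 lower of 42, with SRP9 at 1.20, SEC11A at 1.09 and the oligosaccharyltransferase subunit TUSC3 at -1.07. ER to Golgi transport had 13 higher and 14 lower of 45, with MIA3 at 1.07, SEC24C at 0.94 and KDELR3, a retrieval receptor, at -1.30. Cytosolic chaperones had 10 higher and 8 lower of 30, and mitochondrial chaperones and proteases 7 higher and 3 lower of 18.

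Over all genes, 43 held ERSE or ERSE-II in the searched window, and they were looked up in the counts by current symbol only. In the silencing experiment 31 of them were tested, of which 3 were higher (9.68%) and 5 lower (16.1%), beside 12.8% and 14.5% of all genes tested, and the median log2 fold change was -0.04. In the overexpression experiment 29 were tested, of which 13 were higher (44.8%) and 7 lower (24.1%), beside 33.2% and 34.1% of all genes tested. Their median was 0.10, and without the members 10 were higher and 7 lower of 23. ERO1B, which also held a match, had an older symbol in that experiment. It rose there by 0.62 on the log2 scale and is not in these counts. Of the genes with a CARE, 43.4% of 235 tested were higher and 27.7% lower in the latter experiment, and 8.70% of 253 were higher and 22.9% lower in the former. The ERSE and ERSE-II counts include the 6 members with a match, of which XBP1 was called in the former experiment and XBP1, HERPUD1 and CRELD2 in the latter. A match is a description of the sequence and not evidence of binding.

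Side by side, XBP1 was lower in the libraries labelled DOX (-0.67) and higher in LNCaP/MUC1-C OE (0.81), and so was PDIA4 (-0.33 and 0.41). EIF2AK3 had the reverse signs, at 0.38 and -0.22. HERPUD1 and DNAJB9 were called in the overexpression experiment, at 0.71 and 0.30, and had values of -0.56 and -0.49 in the silencing experiment that did not pass the test with all libraries. HSPA5 had 0.20 in both experiments without a call in either. The 2 experiments were sequenced from different cells and to different depths, and the difference between them was not tested.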

How the data were processed

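The authors prepared stranded mRNA libraries, and the deposited counts per gene symbol are whole numbers without normalization. STAR, DESeq2, GRCh38 and hg38 are named in the submitters' processing notes without versions or roles, and the annotation and counting settings are not given in the sources used here. The authors also deposited TPM values for the silencing experiment, which scale for a gene length whose definition is not given.

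Columns were matched to samples by cell line, treatment and replicate number, and 12 columns of other cell lines in the overexpression table were not used. The 10 members and the gene lists were chosen with earlier results of these data known. Each experiment was fitted separately with edgeR 4.0.16 in R 4.3.3 (TMM normalization, default filter on low counts, robust quasi-likelihood test of the 6 libraries), with Benjamini-Hochberg adjustment over all genes tested and a threshold of 0.05. CPM values are TMM-normalized, and values after ± are SD beside means and standard errors beside log2 fold changes. Depth was 28045894 to 45807989 counts per library (silencing) and 13806856 to 19208944 (overexpression). Replicates differed by more than sampling noise. With 3 libraries against 3, an exact permutation test of a single gene cannot go below a two-sided p of 0.1.

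Named genes were the 10 members, EIF2AK3, ATF6, ATF4, DDIT3, MUC1 and KLK3, and at most 3 genes per list, direction and experiment with the smallest p among those called. One further gene is not reported here. GARS1, SARS1, IGHG1 and IGKC were not matched, and 5 (silencing) and 14 (overexpression) list genes were matched by older symbols. Alternatives were DESeq2 1.42.0, other scalings and filters, a fold threshold, the replicate number as a block, each library left out, and limma 3.58.1 on log2 TPM with a pseudocount of 1 or 0.1. The fits were tested on simulated data. Loci are from GENCODE 29 (GRCh38) and promoter sequences from RefSeq (GRCh38.p14), where all 10 members were matched by symbol. HSP90B1, DNAJB9 and CRELD2 overlap antisense genes, and HSP90B1 and HERPUD1 overlap genes on their own strand. HSPA5 and XBP1 have a pseudogene, so reads shared with any of these are uncertain. Basal, neuroendocrine, fibroblast, immune and plasma cell markers summed to at most 26.0 CPM per list in the silencing libraries. Of these, the immune list summed to 5.37 to 7.58 CPM in vehicle and to 22.5 to 24.9 CPM in the libraries labelled DOX. The fibroblast list overlapped between groups, at 10.3 to 16.7 CPM in vehicle and 7.19 to 16.8 CPM in the libraries labelled DOX. In the overexpression libraries the neuroendocrine list summed to 115 to 156 CPM and the other lists to at most 59.4 CPM.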

Additional observations from a re-analysis of the deposited data

How the results depend on the processing

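The count of members called in the libraries labelled DOX, 3 with all libraries, was 2 to 4 when 1 library was left out. It was 1 with a log2 fold change of at least 1, 1 with limma on log2(TPM + 1) without a filter, 1 with RN7SK left out of the TPM and 6 with vehicle replicate 1 and DOX replicate 2 both left out, the last 2 settings chosen after seeing the data. In LNCaP/MUC1-C OE the count of 5 was 4 to 6 with 1 library left out and 0 with a log2 fold change of at least 1. Calls over all genes with 1 library left out were 8486 to 9512 there. With all libraries of that experiment the unadjusted p was under 0.05 for 9675 genes, and 1917 genes passed that fold threshold.

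On log2(TPM + 1) and log2(TPM + 0.1), 4 members were higher in the libraries labelled DOX and none lower. They were HSPA5, SDF2L1, CRELD2 and AGR2, of which only AGR2 was called on the counts with all libraries. Over all genes on log2(TPM + 1), 4884 of 11404 were higher and 256 lower. On log2(TPM + 0.1), 4277 of 11404 were higher and 249 lower, so the members' count does not set them apart. The log2 differences that changed sign were 0.41 and 0.41 for HSP90B1, 0.23 and 0.23 for PDIA4, 0.10 and 0.11 for DNAJB9, 0.054 and 0.062 for ERN1, and 0.43 and 0.46 for ATF6. On both scales these differences lay below the median of all genes, at 0.45 and 0.52. Without the filter on TPM these differences were the same as on log2(TPM + 1), and the median of all genes was at 0.36. With RN7SK left out, HSP90B1 was at 0.22, PDIA4 at 0.042 and ATF6 at 0.26, and the median of all genes was at 0.29. In LNCaP/MUC1-C OE, scaling by library size only gave -0.052 for HSP90B1 and -0.089 for ERN1, and with 1 library left out ERN1 ranged from -0.036 without OE replicate 1 to 0.17. The cause was not tested.

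Over all genes, 4006 calls in the silencing experiment became 2002 to 5243 with 1 library left out, 7130 with both libraries left out and 988 with the fold threshold. They became 1761 with TPM and no filter and 3078 of 12019 with RN7SK left out of the TPM. Same-numbered libraries correlated in their deviations from group means at 0.20, 0.07 and -0.13 in the silencing experiment and at -0.02, -0.21 and -0.03 in the overexpression experiment. Different-numbered libraries correlated at -0.17 to 0.19 in the former and at -0.09 to 0.13 in the latter. Such deviations within groups of 3 cannot settle whether the replicate numbers pair the samples. With the replicate block, 4 members were called in the silencing experiment, HERPUD1 added with an adjusted p of 0.0151, and 6 in the overexpression experiment, HSPA5 added with an adjusted p of 0.0229. Over all genes, the block fits called 4226 of 14683 in the former and 8965 of 13836 in the latter.

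Members with few counts, AGR2 in the overexpression experiment above all, are limited by depth.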
